A study of Mus musculus with 4 samples.

Results

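Open chromatin was described at 10 neuroendocrine peptide genes of the paraventricular nucleus of the hypothalamus (PVH), a small dorsal hypothalamic nucleus, in mouse tissue. The members were a fixed list, Oxt, Avp, Crh, Trh, Sst, Ghrh, Cartpt, Vgf, Scg2 and Nppc, and all 10 matched the gene table. Every ATAC peak overlapping a member or the 50 kb to each side of it was taken, and overlapping peaks of different libraries (1 bp or more) were joined into merged regions. Oxt and Avp are neighbours and were read as 1 locus, which gave 9 loci. These held 67 of the 67299 merged regions of the series.

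ATAC-seq cuts accessible DNA with a transposase, so that a peak marks a stretch of open chromatin. All mice were 12 weeks old and carried Otp fl/fl, loxP-flanked alleles of the homeodomain transcription factor gene Otp, together with Ai14, a Cre-dependent fluorescent reporter allele. An adeno-associated virus (AAV) was injected in adults and the PVH was taken 4 weeks later. The 2 control libraries came from AAV-GFP and the 2 Otp deletion libraries from AAV-Cre, with loss of Otp limited to cells the virus reached. No sorting of infected cells is described, and neither the sex nor the number of animals per library is given. The study asked whether loss of Otp makes chromatin near its targets less accessible.

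The PVH is the main neuroendocrine output of the hypothalamus. Its magnocellular neurons make oxytocin and vasopressin and send axons to the posterior pituitary, while parvocellular neurons release corticotropin-releasing hormone, thyrotropin-releasing hormone or somatostatin towards the anterior pituitary. Peptides are cleaved from precursors inside dense-core vesicles, where granins such as secretogranin II and VGF are stored with them. Otp is required in development for several of these neuron types.

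The 4 library lists held 57682, 34100, 23384 and 26612 peaks, in the order AAV-GFP replicates 1 and 2 and AAV-Cre replicates 1 and 2. Read depth is unknown, and a longer list finds more regions anywhere. The labels do not say that libraries came from separate animals, so their spread may be technical. With 2 libraries a group the libraries can be parted in 3 ways and no exact p can go below 1 in 3, so no p is given and counts stand beside the same share over all regions or genes. At the start of Otp, a peak was listed with a fold of 3.73 and 4.22 in the controls and 5.52 in AAV-Cre replicate 2. It does not check the deletion, since the labels do not name the deleted part. Of PVH neuron markers, Pou3f2 had a peak at its start in all 4 libraries, Sim1 in AAV-GFP replicate 1 alone. The pan-neuronal genes Syt1 and Elavl4 had one in all 4, Rbfox3 in none. Of 14 glial and endothelial markers, 0 had one in all 4 libraries and 11 had none in any, among them Gfap, Mog, Cx3cr1 and Cldn5. The astrocyte gene Aldh1l1 had one in both controls and AAV-Cre replicate 2, and Slc1a3 and Olig2 in AAV-GFP replicate 1 alone. Of 17491 protein-coding genes, 44.1% had one in all 4 libraries and 40.5% in none.

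The promoters are shown first, because the members differed at the start of the gene. RefSeq promoter entries (GRCm38.p6, the mm10 assembly) were found for 8 of the 10 members, Crh and Vgf being without one. The 250 bases before the start are printed 5′ to 3′ on the strand of the gene. Capitals mark matches, on either strand, to the 9 short motifs that the next paragraph spells out. The palindrome TGACGTCA is the cyclic AMP response element (CRE), the binding sequence of CREB.
The first pair, from Scg2 and Nppc, is shown because a peak covered the start in all 4 libraries.
Scg2, chr1:79440027-79440276, minus strand: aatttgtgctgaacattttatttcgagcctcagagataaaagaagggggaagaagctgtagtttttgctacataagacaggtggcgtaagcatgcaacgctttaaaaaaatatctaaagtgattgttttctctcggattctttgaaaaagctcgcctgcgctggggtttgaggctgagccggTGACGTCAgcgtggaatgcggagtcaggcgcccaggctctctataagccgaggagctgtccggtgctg
Nppc, chr1:86670574-86670823, minus strand: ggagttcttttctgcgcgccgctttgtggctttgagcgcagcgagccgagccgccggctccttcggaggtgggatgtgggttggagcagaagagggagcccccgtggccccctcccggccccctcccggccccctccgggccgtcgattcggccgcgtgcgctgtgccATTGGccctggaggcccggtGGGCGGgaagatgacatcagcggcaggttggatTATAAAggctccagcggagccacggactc
The next belong to Ghrh, where a peak in all 4 libraries lay upstream of the printed window, and to Cartpt, whose start was open in 1 library.
Ghrh, chr2:157346656-157346905, minus strand: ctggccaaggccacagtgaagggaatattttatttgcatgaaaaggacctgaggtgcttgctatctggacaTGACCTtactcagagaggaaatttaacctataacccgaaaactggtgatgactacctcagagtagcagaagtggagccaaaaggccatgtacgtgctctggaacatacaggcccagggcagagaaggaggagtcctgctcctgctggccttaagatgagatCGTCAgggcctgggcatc
Cartpt, chr13:99900684-99900933, minus strand: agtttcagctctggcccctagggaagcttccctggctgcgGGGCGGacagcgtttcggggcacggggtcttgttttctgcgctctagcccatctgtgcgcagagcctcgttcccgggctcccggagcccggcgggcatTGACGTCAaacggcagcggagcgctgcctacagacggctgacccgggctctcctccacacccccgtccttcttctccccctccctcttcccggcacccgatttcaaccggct
The last belong to hormone genes with no peak within 1 kb of the start in any library. Sst and Oxt were added after their values were seen.
Trh, chr6:92244651-92244900, minus strand: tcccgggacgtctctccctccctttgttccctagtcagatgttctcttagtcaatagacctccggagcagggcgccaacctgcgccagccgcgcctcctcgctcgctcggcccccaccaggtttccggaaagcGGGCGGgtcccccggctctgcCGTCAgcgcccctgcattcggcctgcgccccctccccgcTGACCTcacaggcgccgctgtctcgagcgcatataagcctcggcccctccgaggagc
Sst, chr16:23890845-23891094, minus strand: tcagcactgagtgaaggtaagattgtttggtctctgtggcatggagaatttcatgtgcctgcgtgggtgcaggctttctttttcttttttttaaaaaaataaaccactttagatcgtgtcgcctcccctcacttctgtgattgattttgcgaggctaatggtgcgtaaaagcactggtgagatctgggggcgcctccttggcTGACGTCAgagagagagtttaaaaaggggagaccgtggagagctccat
Oxt, chr2:130575919-130576168, plus strand: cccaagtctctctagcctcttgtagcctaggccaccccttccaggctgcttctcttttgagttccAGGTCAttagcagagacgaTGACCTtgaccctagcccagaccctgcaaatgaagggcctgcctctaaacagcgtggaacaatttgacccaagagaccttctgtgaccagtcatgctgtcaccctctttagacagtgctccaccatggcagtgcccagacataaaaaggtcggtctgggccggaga

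TGACGTCA occurred in 3 of the 9 member promoter entries (Ghrh has 2), against 1.55% of 32851 entries. It lay at bases -68 to -61 of Scg2, -112 to -105 of Cartpt and -48 to -41 of Sst, counted from the base before the start as -1. A promoter with this element was thus listed as open in all 4 libraries (Scg2), in 1 (Cartpt) and in 0 (Sst). TGACCT, a half-site of nuclear receptors, was found in 4 of 9 entries, against 14% of all. Oxt held it on both strands, at -185 to -180 and -166 to -161. The homeodomain core TAATTA occurred in 1 of 9, against 4.84%, at the other Ghrh start. The TATA box TATAAA was found in 2 of 9 (12.4% of all), the CCAAT box CCAAT in 2 (33.8%) and the GC box GGGCGG in 3 (32.7%). The E-box CACGTG was found in 1 (6.02%) and the E-box CAGCTG in 0 (13%). The CRE core TGACG, which the full element contains, was in 6 (17.8%). A match describes letters and not a bound site.

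Of the 8 members with a start in the table, Scg2, Nppc and Ghrh had a peak within 1 kb of it in all 4 libraries, as did 44.1% of 17491 protein-coding genes. Oxt, Avp, Trh and Sst had none in any library, as did 40.5% of those genes. Cartpt had one in AAV-GFP replicate 2 alone. The starts of 0 members were control-specific, meaning a peak in both AAV-GFP and neither AAV-Cre library (2.93% of genes). The starts of 0 members were Cre-specific, the converse (0.0457%). These shares are close to the background. In dissected tissue, a smaller share of cells with an open start and less open chromatin in each cell cannot be told apart.

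**Figure D1:**
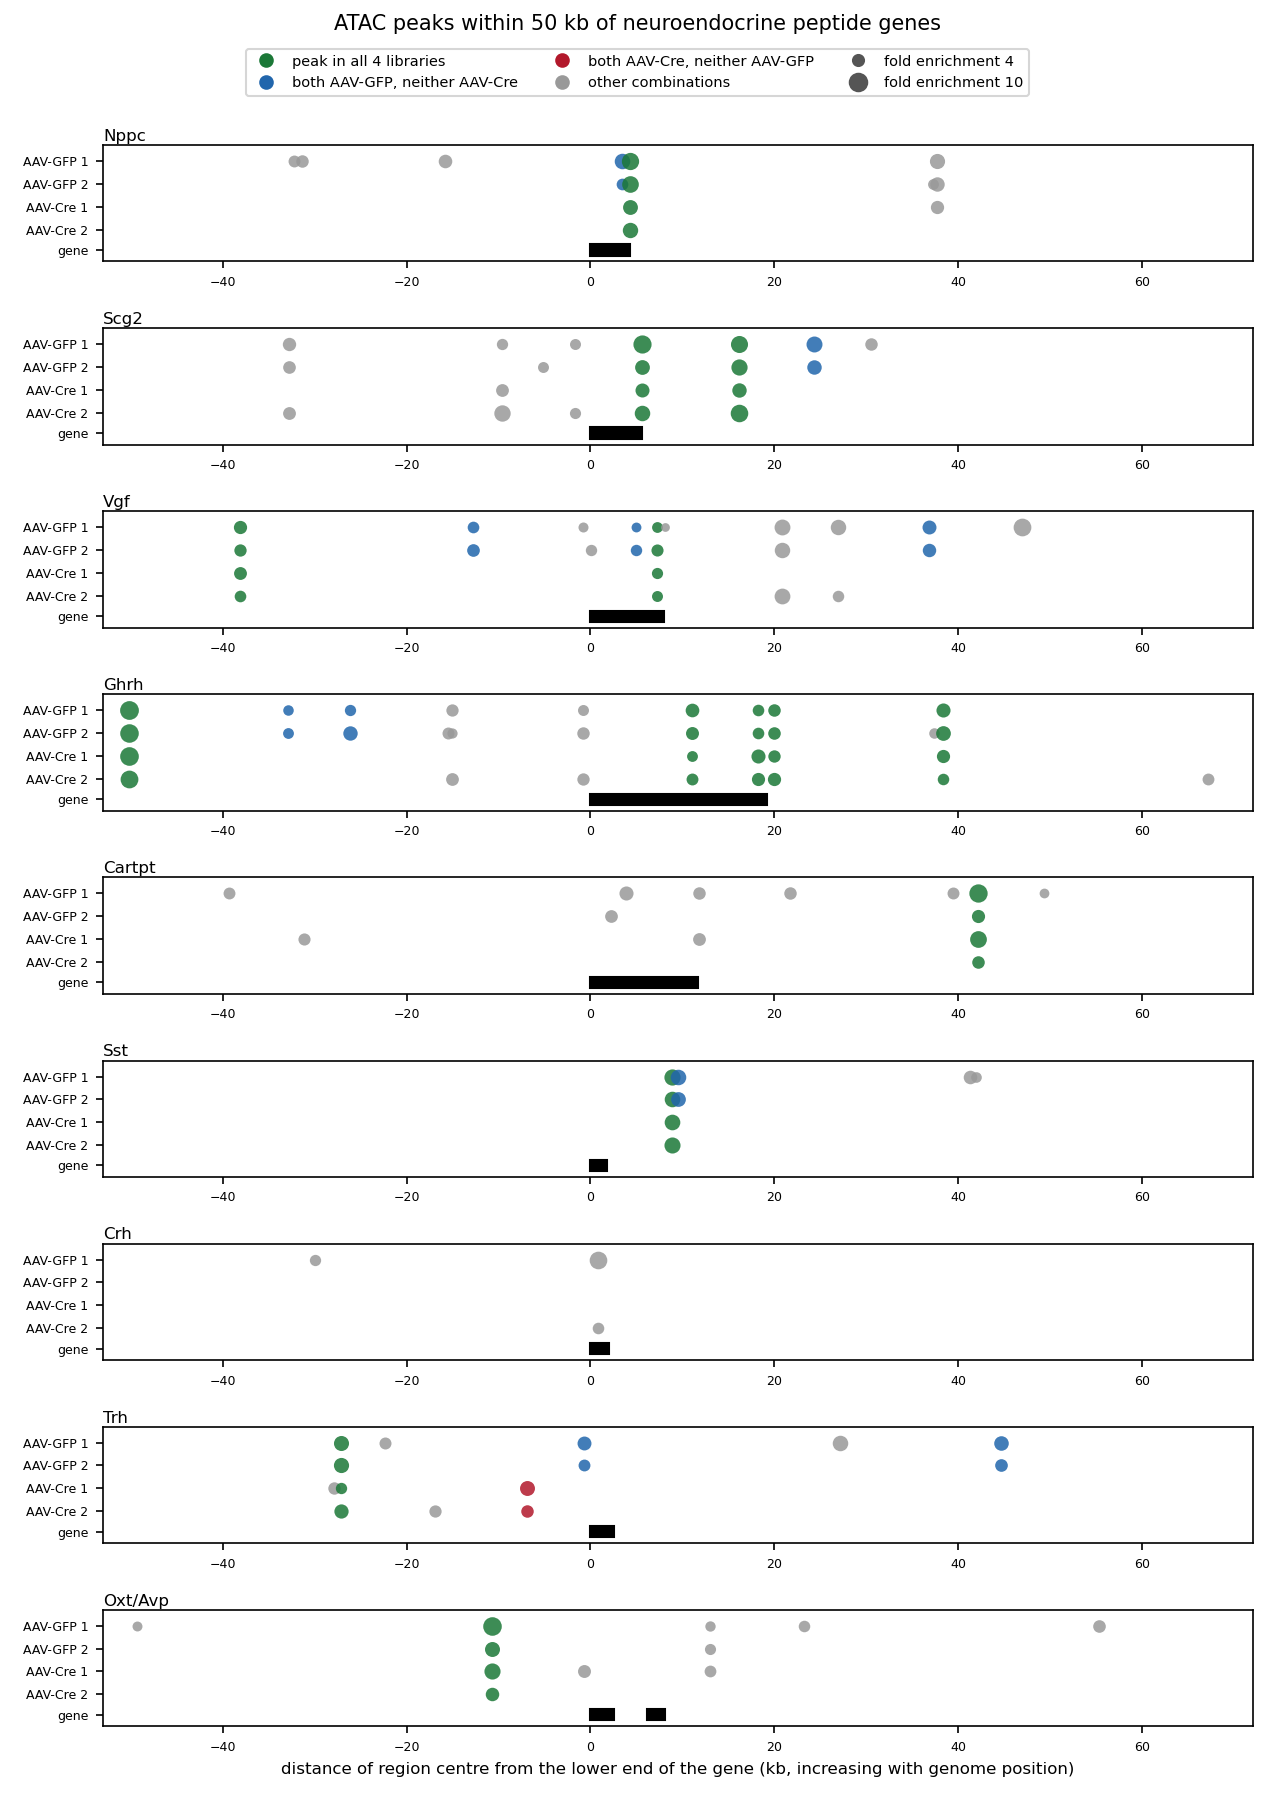
Peaks in 4 libraries at the 9 loci. The x axis is the distance of the merged region from the lower end of the gene in kb, each row is a library, the point area follows the authors' fold enrichment and black bars are the genes. Scg2 and Nppc carry a column of points from all 4 libraries at one end of the gene, while the Oxt, Avp and Trh gene bodies carry none.

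Scg2 encodes secretogranin II, a granin of dense-core vesicles and precursor of secretoneurin. It lies on chromosome 1 from 79434366 to 79440026, and its start was open in every library. The region at 79439807 to 79440242 had a fold enrichment, which the authors give as summit signal over background, of 10.9 and 7.18 in the controls. In the AAV-Cre libraries it was 6.46 and 7.91. By −log10 p it ranked 6944 and 12451 in the control lists and 9723 and 6549 in the AAV-Cre lists. As percentiles of each list, counted from the strongest peak, these ranks were 12.0 and 36.5 against 41.6 and 24.6. The summits lay at -25, 0, 12 and 45 bp from the start, on its gene side of the CRE printed above.
A second region shared by all 4 libraries lay between genes, 10185 bp upstream of Scg2, at 79450211 to 79450859. Its folds were 9.58 and 8.64 in AAV-GFP against 6.83 and 10.1 in AAV-Cre. A further region 18492 bp upstream, at 79458518 to 79458850, was control-specific, with folds of 8.39 and 6.88. On the other side of the gene, a region at 79424574 to 79424965 had AAV-Cre folds of 5.39 and 8.84, beside 4.19 in AAV-GFP replicate 1. The authors' AAV-Cre group list held it (8.74) and their control group list did not, which is not a separate measurement.

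Nppc, the gene of C-type natriuretic peptide, lies on chromosome 1 from 86666293 to 86670573. The region over its start, at 86670272 to 86670826, had folds of 9.81 and 9.13 in AAV-GFP against 7.26 and 7.78 in AAV-Cre. It ranked 8086, 6187, 6493 and 5337 in the same order, in lists of unlike length. As percentiles of each list, counted from the strongest peak, these ranks were 14.0, 18.1, 27.8 and 20.1. The lists all held it within their strongest 27.8%. The summits lay at -3, 30, 29 and 29 bp from the start, past the TATAAA printed above, which ends at base -24. Inside the gene, 707 bp downstream of the start, a region at 86669578 to 86669866 was control-specific, with folds of 7.94 and 4.50. The nearest AAV-Cre peak was 497 bp away and belonged to the start region. The next region by mean percentile lay at the start of Dis3l2, an exonuclease gene, with folds of 7.57 and 6.85 in the controls, 5.78 in AAV-Cre replicate 1 and no peak in replicate 2.

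Vgf encodes a granin-like precursor that neurotrophins induce, and lies on chromosome 5 from 137025301 to 137033351. A region inside the gene and near its upper end, at 137032047 to 137032994, was found by every library. Folds were low, at 3.86 and 4.82 in AAV-GFP against 4.13 and 3.97 in AAV-Cre. Also inside Vgf, a region at 137030093 to 137030345 was control-specific (3.19 and 4.29). Small stretches at its ends had a peak in 1 control each, with folds of 4.25 in replicate 2 and 2.53 in replicate 1.
The Vgf window held 11 regions, and a control-specific one lay 12603 bp below the gene (4.47 and 5.29). A region at the start of Ap1s1, an adaptor subunit gene, had folds of 8.29 and 7.87 in the controls and 8.23 in AAV-Cre replicate 2, with none in replicate 1.

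Ghrh encodes growth hormone-releasing hormone, made mainly in the nearby arcuate nucleus, and lies on chromosome 2 from 157329496 to 157348725. It had 12 regions, of which 5 were shared by all 4 libraries. The region nearest to a start, at 157347360 to 157348151 and 705 bp upstream of the start at 157346655, had folds of 4.42 and 4.44 in AAV-GFP against 6.53 and 5.71 in AAV-Cre. It ranked 30490 of 57682 and 23417 of 34100 in the controls, and 6804 of 23384 and 10548 of 26612 in the AAV-Cre lists. A region 481 bp above the gene, at 157349206 to 157349803, had folds of 5.14, 5.20, 5.04 and 5.77 in the same order. A region inside it, at 157340285 to 157340706, had folds of 6.15, 5.53, 3.87 and 4.65.
The remaining shared regions belonged to starts of other genes. That of Rpn2 and Mroh8, at 157278875 to 157279760, had the strongest mean percentile of all 67, with folds of 11.6, 11.3, 11.5 and 10.4. That of Manbal had folds of 6.52, 7.14, 5.74 and 4.37. In Rpn2, a subunit gene of the oligosaccharyltransferase, 2 regions were control-specific, at 157296335 to 157296871 (3.64 and 3.87) and at 157303215 to 157303445 (4.19 and 6.83).

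Cartpt encodes the precursor of the CART peptides, which restrain feeding, and lies on chromosome 13 from 99898483 to 99910179. Over its start, the region at 99900548 to 99900818 had a fold of 5.34 in AAV-GFP replicate 2 and no peak elsewhere. Inside the gene and 1324 bp upstream of that start, the region at 99902007 to 99902795 had a fold of 6.52 in AAV-GFP replicate 1 alone. A region at the upper end, at 99910123 to 99910558, had folds of 5.13 in AAV-GFP replicate 1 and 5.39 in AAV-Cre replicate 1. No region in the gene was thus held by both libraries of a group. The 1 shared region of the locus lay 30281 bp above the gene, at 99940460 to 99940882. Its folds were 11.0 and 5.71 in AAV-GFP against 9.23 and 5.19 in AAV-Cre, and by rank among shared regions the first replicate stood above the second in either group.

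Sst encodes somatostatin, which inhibits growth hormone release, and lies on chromosome 16 from 23889573 to 23891342. The gene body held no peak. A region 7217 bp upstream of the start, at 23898061 to 23898738, was open in all 4 libraries, with folds of 8.65 and 7.97 in AAV-GFP against 8.07 and 8.51 in AAV-Cre. It ranked 11947, 9205, 4841 and 5440, in lists of unlike length. As percentiles of each list, counted from the strongest peak, these ranks were 20.7, 27.0, 20.7 and 20.4. Next to it, at 23898925 to 23899215, lay a control-specific region with folds of 7.96 and 7.16, whose nearest AAV-Cre peak was 383 bp away. The authors' control group list gave these regions folds of 9.32 and 8.62, and the AAV-Cre group list held only the first (9.47). The group lists come from the same libraries and are not a separate measurement. The third region by mean percentile lay at the start of Rtp2, with a peak in AAV-GFP replicate 1 alone (6.06).

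Crh encodes corticotropin-releasing hormone, the head of the stress axis, and lies on chromosome 3 from 19693401 to 19695396. Its window was the sparsest, with 2 regions and none shared by all 4 libraries. The region inside the gene, at 19693974 to 19694426, also overlaps the non-member gene Gm42189. It had a fold of 10.3 and rank 11024 of 57682 in AAV-GFP replicate 1. In AAV-Cre replicate 2 the fold was 4.42 and the rank 23150 of 26612, and neither other library had a peak. The controls thus differed from each other. Neither group list held the region, which is not a separate measurement. The other region, in Trim55, was held by AAV-GFP replicate 1 only (4.19).

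Trh encodes the precursor of thyrotropin-releasing hormone and lies on chromosome 6 from 92242061 to 92244650. No peak lay in the gene or within 1 kb of its start. The gene is on the minus strand, so the control-specific region at 92241240 to 92241507 (folds 6.38 and 4.63) lay 554 bp past its 3′ end and 3143 bp downstream of the start. A second control-specific region lay at 92286581 to 92286867, in Gm30688 and 41931 bp upstream of Trh, with folds of 6.99 and 5.29. A region at 92234926 to 92235396, 9254 bp downstream of the start, was the only Cre-specific one of the 9 loci as deposited, with folds of 7.35 and 5.14. The control regions and the AAV-Cre region did not touch, and the AAV-Cre region was 5844 bp from the nearest control peak. The shared region of the window lay at the start of Rbsn, an endosomal gene, with folds of 7.46, 7.58, 4.23 and 6.68. Of the 4 lists, that of AAV-GFP replicate 1 alone held the region at 92269153 to 92269313 (7.92).

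Oxt and Avp encode the precursors of oxytocin and vasopressin with their neurophysins, and lie tail to tail on chromosome 2 from 130574519 to 130582588. Neither gene body held a peak in any of the 4 libraries. Of 6 regions at the locus, 1 was shared by all 4, at the start of Mrps26, a mitochondrial ribosome gene, 10259 bp from Oxt. Its folds were 11.3 and 7.39 in AAV-GFP against 8.57 and 5.99 in AAV-Cre. The region nearest Oxt, at 130573730 to 130573938, lay 581 bp below the gene body and 2231 bp upstream of the start. It had a fold of 5.52 in AAV-Cre replicate 1 alone. The region nearest Avp, at 130587360 to 130587755 and 4772 bp upstream of its start, had folds of 3.54 and 4.08 in the controls and 4.56 in AAV-Cre replicate 1. AAV-Cre replicate 2 had no peak there. None of the 6 regions was control-specific or Cre-specific. A region at the start of Ubox5 and Fastkd5 was held by AAV-GFP replicate 1 only (5.25).

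Over the 9 loci, 14 of 67 regions (20.9%) were shared by all 4 libraries, against 21.7% of all regions. Control-specific regions numbered 10 (14.9%), against 11.5%, and Cre-specific regions 1 (1.49%), against 1.18%. A peak in 1 library alone was found at 31 regions (46.3%), against 48.8%, and 20 of those 31 were in AAV-GFP replicate 1, which has the longest list. The shares at the peptide genes were thus near the background. At least 1 control-specific region was found at 6 of 9 loci, against 37.8% of the windows of 21896 protein-coding genes drawn in the same way. For Cre-specific regions it was 1 of 9 against 5.07%, and for shared regions 8 of 9 against 71.5%. The windows held a median of 8 regions, against 5 for all genes, and a median of 1 shared region, against 2. Whether the number of regions in a window bears on the share of loci with a specific one was not tested.
Peaks in the windows numbered 57 and 38 in AAV-GFP against 23 and 26 in AAV-Cre. As a share of each list this was 0.0988% and 0.111%, against 0.0984% and 0.0977%. The means were 0.105% ± 0.00892 (SD, n = 2) and 0.0980% ± 0.000465 (SD, n = 2), and the difference was smaller than the spread between the controls.

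**Figure D2:**
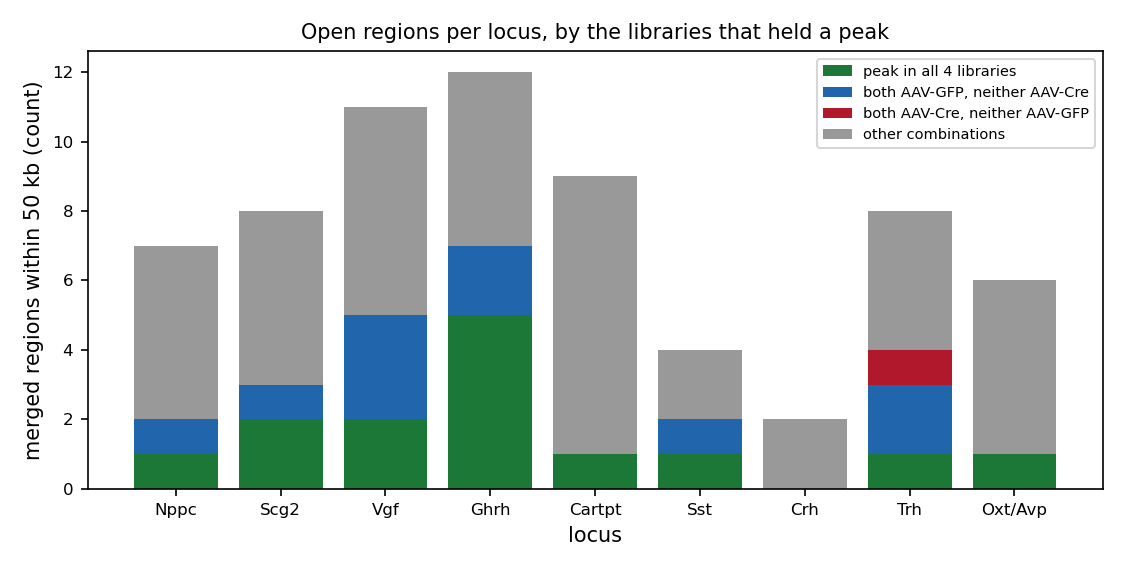
Number of merged regions within 50 kb of each locus (y axis, count), split by the libraries that held a peak. Control-specific regions (blue) number 3 at Vgf, 2 at Ghrh and Trh, 1 at Scg2, Nppc and Sst and 0 at Cartpt, Crh and Oxt with Avp.

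The 10 control-specific regions were of middling strength and mostly away from the members. They stood at a median percentile of 42.5 in AAV-GFP replicate 1 and 59.9 in replicate 2, counted from the strongest peak of each list. Of the 10, 2 lay in a member, those of Nppc and Vgf, while 4 lay in other genes and 4 between genes. The median width was 288 bp, against 663.5 bp for the 14 shared regions, as over all regions (300 bp against 622 bp). An AAV-Cre peak lay within 1 kb of 2 of the 10, at Nppc and Sst, against 9.37% of all control-specific regions. All 10 had a peak in the authors' control group list and 0 had one in their AAV-Cre group list, which is not a separate measurement.
With every list reduced to its 23384 strongest peaks, the length of the shortest, 3 of the 10 were still control-specific. They include the region 18492 bp upstream of Scg2 and the one 8081 bp upstream of Sst. The same 3 held with peaks of −log10 q of at least 5. The other 7 lost at least 1 control peak at the reduced length, so for them that setting does not compare the groups. At equal length 5.41% of all regions were control-specific and 4.6% Cre-specific. The Trh region was still Cre-specific at equal length, but at the stricter q its peak in AAV-Cre replicate 2 (−log10 q of 4.27) fell out.

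For the 14 shared regions, ranks were compared as percentiles among the 14634 regions shared by all 4 libraries, with 0 the strongest. Each library is then ranked over the same regions, but list length still decides which regions are shared. At equal list length 11 regions near the members were shared, and the region nearest a Ghrh start was not among them. The Ghrh region nearest a start stood at 94.0 and 93.3 in AAV-GFP and at 44.1 and 62.8 in AAV-Cre. Both AAV-Cre libraries thus ranked it above both controls, and the mean difference was -40.2 points. The controls differed by 0.646 points and the AAV-Cre libraries by 18.7 points. Over all shared regions the SD of this difference was 16.4 points, and 1.28% lay as far in this direction. At the Sst upstream region the percentiles were 64.6 and 56.7 in AAV-GFP against 32.3 and 35.9 in AAV-Cre. The groups did not overlap there either, with a difference of -26.6 points (5.30% as far), or -31.1 points at equal list length.
The next 3 shared regions ranked higher in both AAV-Cre libraries, with smaller differences. They were the region 10185 bp upstream of Scg2 (-18.3 points), the one 481 bp above Ghrh (-16.1) and the start of Rpn2 and Mroh8 (-10.3). The Scg2 value was -4.04 without AAV-Cre replicate 2 and -27.5 without AAV-Cre replicate 1. That of the region 481 bp above Ghrh was -10.4 and -25.2 without the same libraries, -5.18 at the stricter q and -32.7 in the group lists. That of Rpn2 and Mroh8 was -6.40 without AAV-GFP replicate 1 and -15.8 in the group lists. The region inside Ghrh, at 157340285, went the other way, from 72.4 and 77.7 to 97.4 and 82.1, a difference of 14.7 points. This became 7.38 at equal list length, 7.77 without AAV-Cre replicate 1 and 27.0 without AAV-Cre replicate 2, so its size rested on single libraries while its sign did not change in those settings. At the starts of Nppc (-5.92 points) and Scg2 (-5.35) and inside Vgf (5.84) the groups overlapped. Without 1 library these values ran from -9.26 to -1.76, from -18.3 to 8.24 and from -0.721 to 14.8.
In all, 5 of 14 ranked higher in both AAV-Cre libraries, against 19.8% of shared regions, and 1 lower, against 19.7%. The median difference was -5.63 points, against -0.0214 over all shared regions, with 8 of 14 below 0. Of the 5, 3 lay at the Ghrh locus. The median gap between libraries of 1 group was 8.07 points in the controls and 17.1 points after AAV-Cre, larger than the median difference. The median difference without AAV-GFP replicate 2 was -0.721 points.

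**Figure D3:**
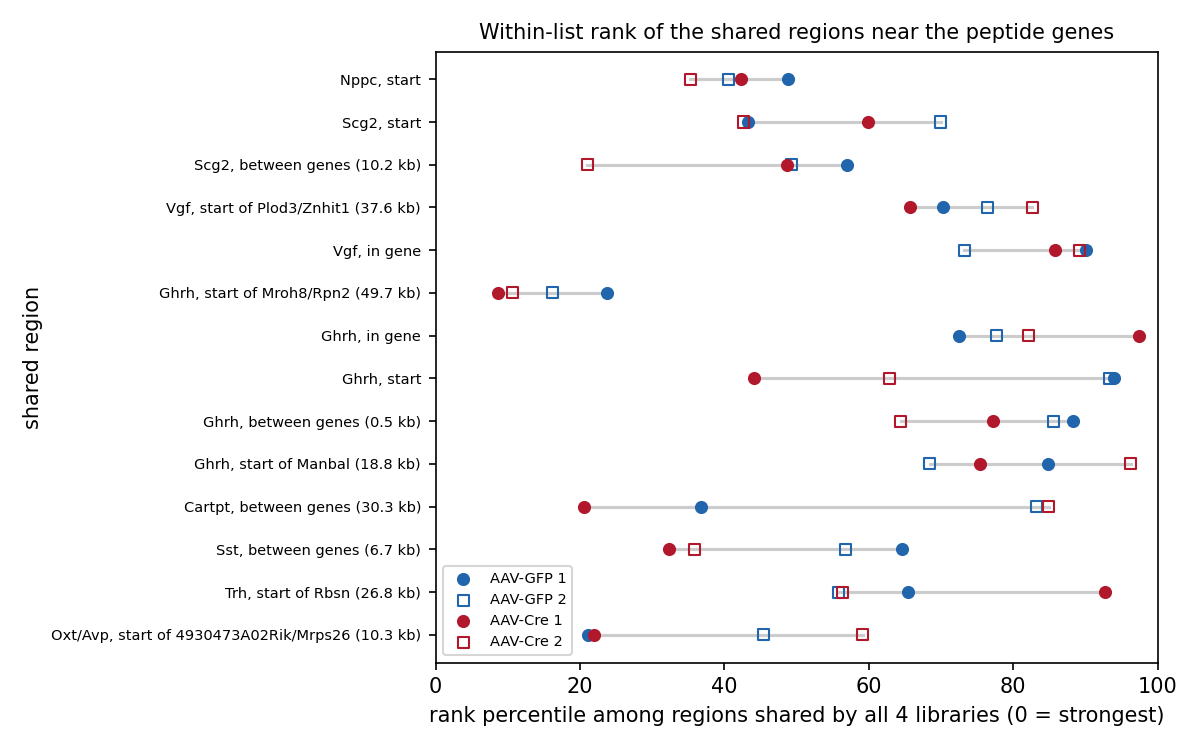
Rank percentile (x axis, 0 is strongest) of the 14 shared regions in each library, one row per region with its distance from the member. Filled circles are replicate 1 and open squares replicate 2, blue for AAV-GFP and red for AAV-Cre. At Ghrh, start, and at Sst both red points lie left of both blue points, while at Cartpt replicates of 1 group lie 46.4 and 64.4 points apart.

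**Figure D4:**
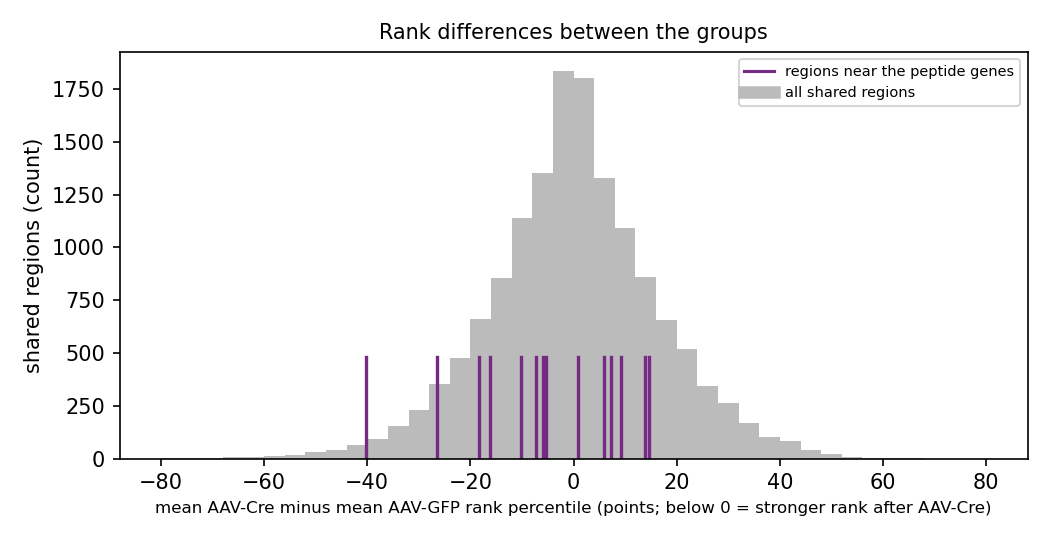
Histogram of the mean AAV-Cre minus mean AAV-GFP rank percentile over the 14634 shared regions (x axis in points, y axis count), with purple lines at the 14 regions near the peptide genes. The lines run from -40.2 (Ghrh) to 14.7 points (inside Ghrh).

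Other genes of peptide secretion were read in the same way at their starts. Of 14 genes of peptide processing and dense-core vesicles with a start in the table, 11 had a peak within 1 kb of it in all 4 libraries, against 44.1% of protein-coding genes, and 0 had none. Pcsk1 and Pcsk2, the convertases that cleave peptide precursors, were among them. Pcsk2 had folds of 12.5, 9.74, 8.99 and 7.77 and Pcsk1 of 11.6, 8.25, 6.79 and 7.09. Cadps2, a priming factor for vesicle release, was control-specific (5.53 and 5.64), against 2.93% of genes. Its summits lay at -841 and 162 bp from the start in AAV-GFP replicates 1 and 2. The rule asks for a peak within 1 kb of the start and not for the same peak in both libraries.
Of 16 other peptide genes expressed in or near the PVH, 1 had a peak in all 4 libraries, against 44.1% of protein-coding genes. None was found in any library at 13, against 40.5%. The 1 was Nucb2, precursor of nesfatin, with folds of 16.2, 14.1, 10.9 and 13.1, while those with none include Cck, Gal, Vip and Tac1.
Of 11 receptors and binding proteins of the member peptides, 1 had a peak in all 4 libraries, against 44.1% of protein-coding genes. It was Sstr2, a somatostatin receptor. Another 4, Oxtr, Avpr2, Crhr2 and Crhbp, had none in any, against 40.5%, so that share was near the background. Sstr2 had folds of 6.57, 6.31, 4.88 and 4.47. Avpr1a, a vasopressin receptor, was control-specific (4.14 and 5.64), against 2.93% of genes, with summits at -526 and 21 bp from the start. Npr3, which clears natriuretic peptides such as that of Nppc, was Cre-specific (5.45 and 5.67), against 0.0457% of genes.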

How the data were processed

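Per the labels, ATAC-seq libraries were made from nuclei of dissected PVH with a commercial kit. Reads were handled with FastQC, Trim Galore and Bowtie2 and peaks with MACS2 on mm10, per the submitters' processing notes. For versions, read filters, transposase shift and peak threshold, nothing is stated in the sources used here. The authors deposited 6 narrowPeak lists, 4 of libraries and 2 of groups, the latter named as overlap peaks and read here as pools of each group's libraries. Each holds the authors' score, fold enrichment as a ratio, −log10 p and −log10 q. Folds are printed as the authors list them, with no scaling between lists, and ranks by −log10 p were taken within each list.

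Peaks of the 4 library lists sharing at least 1 bp were merged, and each region took the strongest peak of each library. Genes and 32851 promoter entries came from RefSeq tables of GRCm38.p6. A start was called open when a peak lay within 1 kb. Merging was tested on simulated lists. Python 3.11.15 and pandas 2.3.3 were used. The exact tests planned for the share of peaks and for ranks are not printed, since they could not go below 1 in 3. The members, lists and settings were chosen with earlier results of these data known. Named were all members, regions in or at them, group-specific regions, the 3 strongest regions of each window by mean percentile over the libraries with a peak and list genes with a group-specific start, besides examples of the lists chosen after their values were seen. Alternatives were equal list length, a stricter q, stricter overlap, a 10 kb window, the group lists and leaving out each library.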

Additional observations from a re-analysis of the deposited data

How the results depend on the processing

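Counts moved with list length and with how many libraries had to hold or lack a peak, and depth is unknown. Against 10 control-specific regions, equal length gave 3, a −log10 q of at least 5 gave 5, the 10 kb window 4 and the group lists 16. Over all regions, 7728 of 67299 (11.5%) were control-specific as deposited, 2102 of 38866 (5.41%) at equal length and 5731 of 40373 (14.2%) at the stricter q. At the stricter q their count over all regions thus fell too, while their share rose. The share among the member regions at these settings is not given, nor the share over all regions for the 10 kb window and the group lists. At the stricter q, 2 of the 5 were parts of the region inside Vgf, where the AAV-Cre peaks fell below the limit. Against 1 Cre-specific region there were 3 with equal length (Trh, Scg2 and Ghrh), 0 with the stricter q and 2 with the group lists. Over all regions the Cre-specific share was 1.18% as deposited and 4.6% of 38866 at equal length. The Ghrh region was Cre-specific at equal length because both its control peaks fell out, that of AAV-GFP replicate 2 at rank 23417 with 23384 kept. Against 14 shared regions equal length gave 11, the stricter q 8 and the 10 kb window 7. For the remaining Cre-specific and shared counts no share over all regions is given, so they are not set against a background. Without a library, control-specific regions numbered 12 to 30 (17 without AAV-GFP replicate 1, 30 without AAV-GFP replicate 2), Cre-specific regions 1 to 4 and shared regions 14 to 18. The difference in the share of list peaks, -0.00710 percentage points, became 0.00214 with equal length, 0.000536 with the stricter q and 0.00488 in the 10 kb window, and -0.0134 to -0.000789 without a library. The median rank difference of shared regions, -5.63 points, was -8.80 to -0.721 without a library, and -7.40 to -5.50 in the other alternatives. For the Ghrh region it was -51.8 to -36.1 without a library and -26.9 with the group lists. With fewer libraries the rule is easier to meet by construction, and for other moves the cause was not tested.

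The labels number the libraries 1 and 2 in both groups. With the replicate block the values were 10, 1, 14, -0.00710 and -5.63, the same by construction: a region counts when each pair shows its pattern, which is the rule without pairs, and a mean over pairs equals a difference of means. The labels tie the numbers to no shared animal or day. Across the 14634 shared regions, deviations of same-numbered libraries from their group means had a Pearson r of -0.0166, and the numbers were not taken to pair libraries.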
